A study of Mus musculus with 4 samples.

Results

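The glucocorticoid receptor gene Nr3c1 and 7 genes of the response to its hormone, Sgk1, Fkbp5, Tsc22d3, Klf9, Zbtb16, Errfi1 and Hsd11b2, were followed in the mucosa of the mouse gastric corpus. The 8 genes were chosen by name, with their counts in the deposited table already known, and they are 8 of its 34866 genes. Because the choice had the difference between genotypes in view, that difference is given for them as a description, with no p-value for any of them, and counts past a threshold stand only beside the share over all genes. All 8 passed the filter on low counts, which left 14067 genes tested. Libraries came from wild-type mice, labelled Muc6 +/+, and from mice without the gel-forming mucin gene Muc6, labelled Muc6 -/-, with 2 libraries per genotype. Values are given in the order library 1, library 2. Strain, age, sex, the way the allele was made and the number of animals behind a library are absent from the labels used here. P-values therefore measure only the spread between these libraries, which may be technical. The comparison asks how loss of Muc6 relates to gastric tumour formation.

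Glucocorticoids, corticosterone in mice, enter cells and bind a receptor held ready in the cytosol by heat shock chaperones. The bound receptor moves to the nucleus, where it switches genes on at paired half-sites in DNA and restrains inflammatory genes. In the mouse stomach these hormones are known to hold back inflammation and metaplasia of the corpus.

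The libraries held 20327623 to 27946313 counts. Muc6 checked the labels, with 8542 and 6000 counts (Muc6 +/+) versus 0 and 10 (Muc6 -/-). Several other features moved with genotype or set single libraries apart. Transcripts of 4 Y-linked genes (Eif2s3y, Kdm5d, Uty, Ddx3y) summed to 136 and 121 CPM, counts scaled to library size, with Muc6 and to 1.43 and 2.44 without it. Genotype therefore cannot be told apart from Y-linked expression, or from a difference in sex, for any gene below. Markers of acid-secreting parietal cells summed to 16355 and 15875 CPM (Muc6 +/+) versus 806 and 5217 CPM (Muc6 -/-), and all 8 were lower in knockout. The 3 antral markers summed to 191 CPM in knockout 1 and to 0.365 to 2.97 in the others. Fibroblast markers summed to 470 and 441 CPM in the second library of each genotype (wild type 2, knockout 2) but to 44.3 and 62.1 in wild type 1 and knockout 1, and smooth muscle markers followed the same split. Chief cell markers summed to 64420 and 147919 CPM (Muc6 +/+) versus 2329 and 81462 CPM (Muc6 -/-), so that knockout 1 alone was far below the rest. Mucous neck markers, Muc6 among them, summed to 1379 and 1020 CPM versus 12347 and 8104, and pit cell markers to 108981 and 72265 CPM versus 61763 and 48512. The part of these cell types in the values of the 8 genes was not tested. In bulk mucosa, fewer cells of a type and less RNA per cell cannot be told apart.

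The receptor gene differed little between genotypes, while 5 of its induced targets were lower in both knockout libraries. Fkbp5 was 7.94-fold lower in the fit and Sgk1 5.52-fold lower, whereas Errfi1 overlapped between genotypes and Hsd11b2 was 3.65-fold higher. In all, 6 of the 8 genes had both knockout libraries below both wild-type libraries, as did 23.8% of all genes tested, and 1 had them above, as did 26.3%. In edgeR's quasi-likelihood test none of the 8 and none of all genes (0%) had an adjusted p under 0.05. Muc6 itself missed that threshold, with a log2 fold change of -10.55 and an edgeR adjusted p of 0.178. Here and below, not passing this test therefore does not show that a gene was unchanged. At an unadjusted p under 0.05 it took 5 of the 8 and 15.9% of all genes. DESeq2 called 5 of the 8 at an adjusted p under 0.05, all lower, and 7.42% of all genes, 3.36% lower and 4.06% higher. Since the 8 genes were chosen with this contrast known, nothing is read from these counts.

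**Figure D1:**
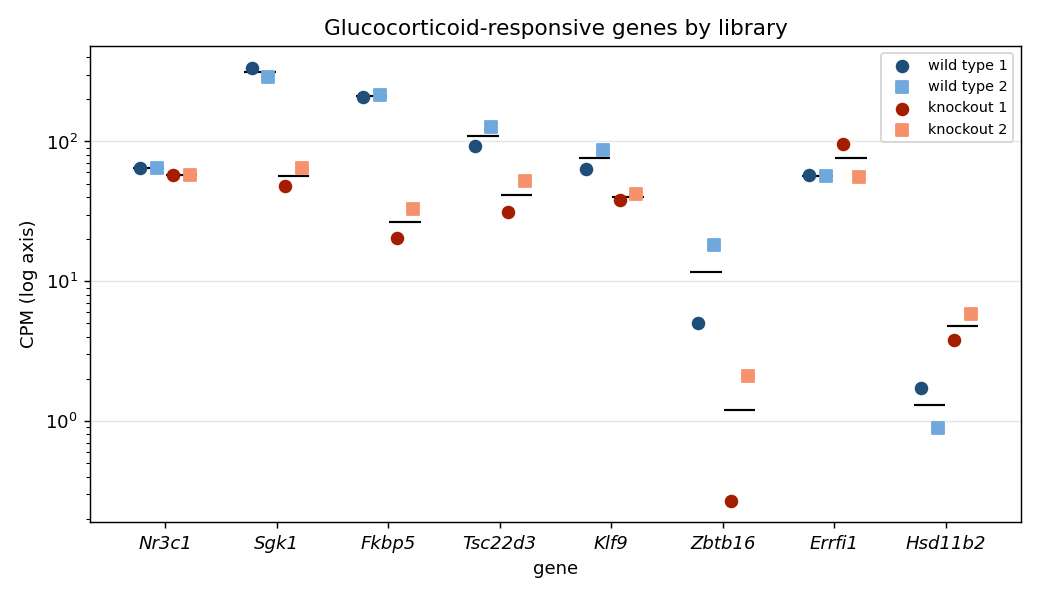
CPM (log axis) of each of the 8 genes in wild type 1 and 2 (blue) and knockout 1 and 2 (red), with black lines at the mean of each genotype. Sgk1 and Fkbp5 sit at 207 to 338 CPM in wild type and at 20.4 to 65 in knockout, while Nr3c1 lies between 57.2 and 64.8 CPM in all 4 libraries.

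Nr3c1 (ENSMUSG00000024431.14, minus strand of chromosome 18, 39410545 to 39519421, mm10) encodes the receptor itself. It was at 64.2 and 64.8 CPM (Muc6 +/+) versus 57.2 and 57.4 CPM (Muc6 -/-). The groups did not overlap, yet the gap was small, with a log2 fold change of -0.17 ± 0.12 (SE, n = 2 per genotype). Libraries of a genotype were close to each other, with SDs of 0.435 and 0.167 CPM. On the scale of all 14067 genes 36% had a log2 fold change as low or lower.

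The receptor needs chaperones to bind hormone. Of 11 tested chaperone and cochaperone genes, 7 were higher and 4 lower in the fit, with a median log2 fold change of 0.17 against -0.00173 over all genes tested, and none passed the test. Hsp90ab1 and Fkbp4 were named for their roles after their values were seen. Hsp90ab1, the constitutive HSP90 gene, was at 1673 and 1394 CPM (Muc6 +/+) versus 1551 and 1453 CPM (Muc6 -/-), overlapping between genotypes. Fkbp4, the cochaperone that counters FKBP5 on the receptor, was at 208 and 188 CPM against 199 and 206, a log2 fold change of 0.04 ± 0.17. Stip1, which bridges HSP70 and HSP90, had a log2 fold change of 0.31 ± 0.18 (edgeR adjusted p = 0.492). Ppid, a cyclophilin of the complex, was at 0.21 ± 0.12 (edgeR adjusted p = 0.483) and Bag1, an HSP70 regulator, at -0.26 ± 0.19 (edgeR adjusted p = 0.579).

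Coregulators carry the receptor's signal to chromatin. Of 12 tested, 5 were higher and 7 lower, with a median log2 fold change of -0.14. None passed edgeR's test, and DESeq2 called 2 lower, Ppargc1a and Ncoa1, against 3.36% lower of all genes tested. Ppargc1a, a coactivator that drives mitochondrial genes, was at 21.9 and 23.9 CPM (Muc6 +/+) versus 4.98 and 8.42 CPM (Muc6 -/-), with no overlap. Its log2 fold change was -1.77 ± 0.31 (SE, n = 2 per genotype, edgeR adjusted p = 0.21, 5.1e-04 to 0.738 over the alternatives). Ncoa1, a steroid receptor coactivator, was at 30 and 32.7 CPM against 18.5 and 20 (-0.70 ± 0.13, edgeR adjusted p = 0.21, 0.041 to 0.738 over the alternatives). Carm1, an arginine methyltransferase that acts with these coactivators, was at 23.7 and 24.5 CPM against 28.6 and 31.9 (0.33 ± 0.13, edgeR adjusted p = 0.341).

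Sgk1 (ENSMUSG00000019970.15, plus strand of chromosome 10, 21882184 to 21999903, mm10) encodes a kinase that raises sodium uptake across epithelia and is a classic early target of the receptor. It is shown with its sequence because a full receptor motif lies in one of its promoter windows. RefSeq promoter windows (GRCm38.p6, the mm10 assembly), each from 250 bases before to 50 after a transcript start, were at hand for 5 of the 8 genes, 13 windows in all. The motif searched was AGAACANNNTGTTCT, which reads the same on both strands and joins the half-sites AGAACA and TGTTCT. It was found in 1 of the 13 windows, that of the fifth of 6 annotated Sgk1 starts, and in 3 of all 32851 windows (0.00913%). The window follows, on the plus strand at chr10:21993640-21993939, with its 3 half-sites in capitals, 2 of them inside the palindrome.
Sgk1 start at 21993890: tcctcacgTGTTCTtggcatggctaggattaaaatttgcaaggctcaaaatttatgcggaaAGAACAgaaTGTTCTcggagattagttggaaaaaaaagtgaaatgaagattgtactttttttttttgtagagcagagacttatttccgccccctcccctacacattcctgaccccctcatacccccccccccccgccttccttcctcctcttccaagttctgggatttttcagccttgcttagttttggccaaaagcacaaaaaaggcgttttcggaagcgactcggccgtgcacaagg
The palindrome lay at chr10:21993701-21993715, 189 bases before that start and 965 bases before the most downstream start at 21994666. A match is a description of these letters, not evidence of binding, and the gene counts do not tell which start was used.

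Half-sites alone are common, and they are shown for contrast with the full motif. A half-site on either strand stood in 19% of all windows and in 4 of the 13 windows (30.8%), namely 3 of Sgk1 and 1 of Tsc22d3. The windows of Fkbp5, Klf9 and Errfi1 had none, which says only that these letters are not there. Below are stretches around 3 half-sites outside the printed window, in the direction of transcription, with half-sites in capitals.
Sgk1, 195 bases before the first start, chr10:21881974-21882009: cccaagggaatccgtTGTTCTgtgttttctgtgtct
Sgk1, 13 bases before the fourth start, chr10:21992195-21992230: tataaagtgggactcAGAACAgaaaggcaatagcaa
Tsc22d3, 185 bases before its most upstream start, minus strand, chrX:140600687-140600722: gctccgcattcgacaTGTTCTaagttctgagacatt

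Sgk1 was at 338 and 288 CPM (Muc6 +/+) versus 48.2 and 65 CPM (Muc6 -/-). Both wild-type libraries were several-fold above both knockout libraries. Its log2 difference, knockout over wild type, was -2.47 ± 0.24 (SE of the fit, 2 libraries each), and it ranked 102 from the lowest of 14067 genes. Per kilobase of exon, Sgk1 was the most abundant of the 8 in wild type, at 63.8 ± 7.32 CPM per kb (SD, n = 2), and in knockout it was at 11.6 ± 2.42 against 21.2 ± 8.14 for Errfi1.

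Fkbp5 (ENSMUSG00000024222.16, minus strand of chromosome 17, 28399094 to 28517527, mm10) encodes a cochaperone that lowers the receptor's affinity for hormone and so closes a feedback loop. It was at 207 and 214 CPM (Muc6 +/+) versus 20.4 and 32.6 CPM (Muc6 -/-). The wild-type libraries were almost level, and knockout 2 was 1.6 times knockout 1. edgeR put the log2 change at -2.99 ± 0.29 (SE, 2 libraries each), and leaving out 1 library at a time gave -3.42 to -2.74.

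Tsc22d3 (ENSMUSG00000031431.13, minus strand of chromosome X, 140539528 to 140600659, mm10) encodes GILZ, a leucine zipper protein through which glucocorticoids restrain inflammatory signalling. It was at 93 and 126 CPM (Muc6 +/+) versus 31.3 and 51.8 CPM (Muc6 -/-). The number 2 library was the higher in both genotypes, by 1.35 and 1.65 times, and the groups did not overlap. In the fit the log2 change came to -1.39 ± 0.33 (SE, 2 libraries per genotype).

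Klf9 (ENSMUSG00000033863.1, plus strand of chromosome 19, 23141226 to 23168134, mm10) encodes a Krüppel-like transcription factor induced directly by the receptor. It was at 63.9 and 87.5 CPM (Muc6 +/+) versus 38.2 and 42.4 CPM (Muc6 -/-). The groups did not overlap, and the spread was wider in wild type. Its log2 difference, knockout over wild type, was -0.91 ± 0.21 (SE of the fit, 2 libraries each), smaller in size than that of Fkbp5, Sgk1 or Tsc22d3.

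Zbtb16 (ENSMUSG00000066687.5, minus strand of chromosome 9, 48654297 to 48836222, mm10) encodes PLZF, a zinc finger transcription factor. It held 125 and 348 counts (Muc6 +/+) versus 6 and 51 (Muc6 -/-), or 5.04, 18.1, 0.269 and 2.11 CPM. Libraries of a genotype differed widely, since wild type 2 was 3.59 times wild type 1 and knockout 2 was 7.83 times knockout 1. Col1a1, a fibroblast collagen gene, was likewise 12.4 and 7.51 times higher in the number 2 libraries, and its part in the Zbtb16 values was not tested. edgeR put the log2 change at -3.27 ± 1.21 (SE, 2 libraries each). It was -5.47 without knockout 2, -2.52 without knockout 1, -3.91 without wild type 1 and -2.08 without wild type 2.

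Errfi1 (ENSMUSG00000028967.10, plus strand of chromosome 4, 150853919 to 150868892, mm10) encodes MIG6, a feedback inhibitor of the EGF receptor. It was at 57.3 and 56.7 CPM (Muc6 +/+) versus 96.5 and 55.3 CPM (Muc6 -/-). Knockout 1 alone was high, and knockout 2 lay below both wild-type libraries. The log2 fold change of 0.41 ± 0.31 (SE, n = 2 per genotype) went to -0.09 without knockout 1, the library that holds the antral markers and, at 129 CPM against 0.26 to 10 in the others, the squamous markers; Trp63 and Krtdap were at 0 in all 4 libraries. Egfr, the receptor that MIG6 restrains, was likewise high in knockout 1, at 105 CPM against 30.6 in knockout 2 and 49.1 and 35.6 in wild type. Egfr (0.68 ± 0.64, edgeR adjusted p = 0.677), Erbb2 (0.35 ± 0.25, edgeR adjusted p = 0.566) and Erbb3 (0.46 ± 0.29, edgeR adjusted p = 0.507) were the 3 of 4 ErbB receptor genes tested.

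Hsd11b2 (ENSMUSG00000031891.6, plus strand of chromosome 8, 105518755 to 105523988, mm10) encodes the enzyme that inactivates corticosterone. It held 43 and 17 counts (Muc6 +/+) versus 84 and 142 (Muc6 -/-), or 1.73, 0.886, 3.77 and 5.86 CPM. Both knockout libraries were above both wild-type libraries, at low levels throughout. In the fit the log2 change came to 1.87 ± 0.56 (SE, 2 libraries per genotype), and leaving out 1 library at a time gave 1.46 (without wild type 2) to 2.44 (without wild type 1).

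**Figure D2:**
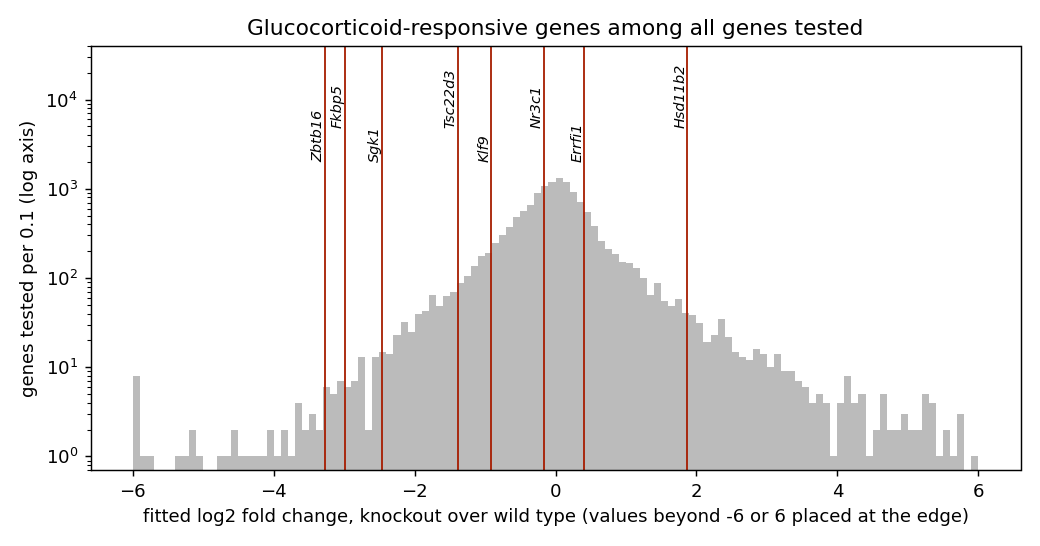
Histogram of the log2 fold change, knockout over wild type, of all 14067 genes tested, with values beyond the axis placed at its edge and a line for each of the 8 genes. Zbtb16, Fkbp5 and Sgk1 rank 43, 60 and 102 from the lowest, Nr3c1 ranks 5064 and Hsd11b2 ranks 13639.

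Compared per kilobase of exon, wild-type levels ran from Sgk1 through Tsc22d3 at 25.2 ± 5.3 CPM per kb (SD, n = 2) and Fkbp5 at 22.2 ± 0.574 to Errfi1 at 15.9 ± 0.121 and Klf9 at 15.7 ± 3.47. Tsc22d3 and Fkbp5 differed by less than their spread, as did Errfi1 and Klf9. Nr3c1 followed at 8.39 ± 0.0566, then Zbtb16 at 2.19 ± 1.75 and Hsd11b2 at 0.712 ± 0.326, which also differed by less than their spread. With the length of the longest transcript in place of the exon union, Fkbp5 stood above Tsc22d3, at 54.5 against 38 CPM per kb.

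The distance to wild type was taken for each knockout library. Against the wild-type mean, the log2 difference of Sgk1 was -2.69 in knockout 1 and -2.26 in knockout 2, and that of Fkbp5 -3.36 and -2.69. That of Tsc22d3 was -1.78 and -1.06, and that of Zbtb16 -4.76 and -2.14. The median of the 8 parietal markers was -3.78 and -1.43. Atp4a, the proton pump subunit, was 9.43 times higher in knockout 2 than in knockout 1, against 1.35 times for Sgk1 and 1.6 times for Fkbp5. The parietal markers Atp4b, Hrh2, Kcne2 and Aqp4 were likewise 8.92, 8.6, 7.72 and 6.28 times higher in knockout 2. The rest of the 8 moved less between the knockout libraries, the channel genes Slc26a9 and Kcnq1 at 1.41 and 1.36 times and Slc4a2 at 1.73 times. The part of parietal cell number in these values was not tested.

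**Figure D3:**
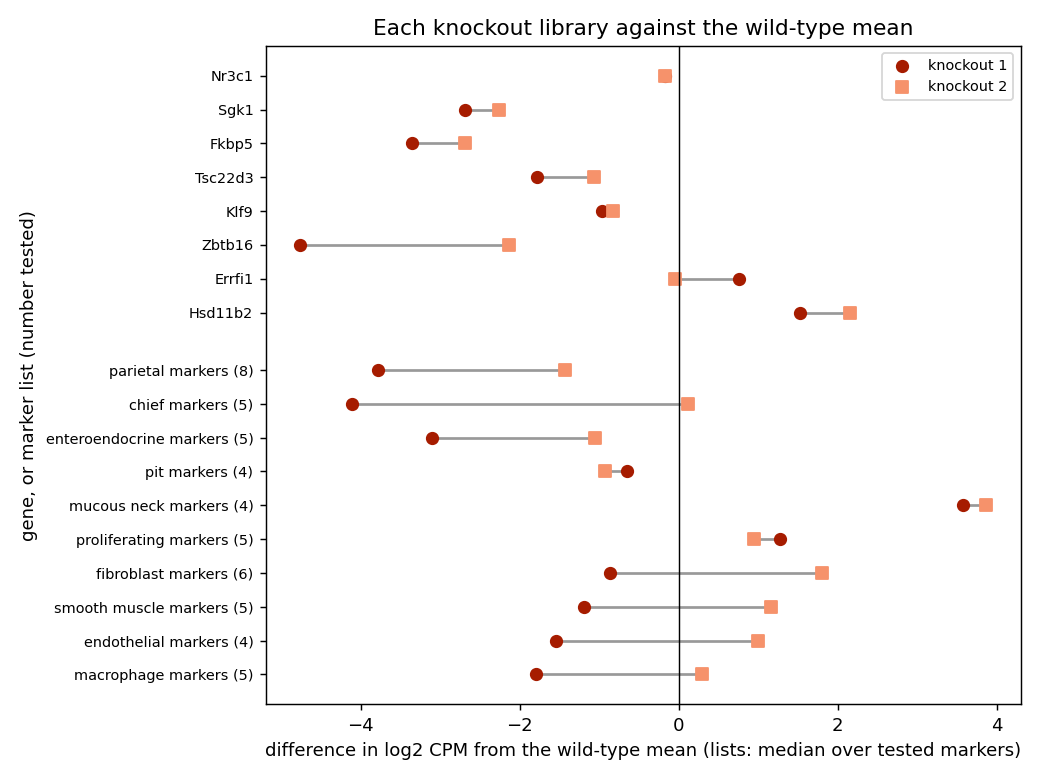
Log2 difference of knockout 1 and of knockout 2 from the wild-type mean for the 8 genes and for the median of each of 10 marker lists. Sgk1 lies at -2.69 and -2.26 and the parietal markers at -3.78 and -1.43, and the 2 points of Nr3c1 coincide at -0.17.

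Among the pathway and cell type genes, the nearest profile to that of Sgk1 over the 4 libraries was Pdk4, with a root mean square difference of 0.06 on the log2 scale. Second nearest to Sgk1 was the parietal gene Slc26a9, at 0.32. Pdk4 was also nearest to Fkbp5, at 0.29, followed by Hif3a at 0.33. Nearest to Nr3c1 was the coactivator gene Crebbp at 0.04, then Ncoa2 at 0.06. Nearest to Tsc22d3 was the parietal gene Kcnq1 at 0.17, then the induced target Glul at 0.22. Nearest to Klf9 was Ncoa1 at 0.15, then Klf13 at 0.19. Errfi1 was nearest to the ubiquitin ligase gene Nedd4l at 0.03, then Ddit4 at 0.09. Zbtb16 was nearest to the endocrine gene Chga at 0.39, then Hdc at 0.66. Hsd11b2 was nearest to the nucleotide synthesis gene Rrm2 at 0.44, then Top2a at 0.47. Chga was at 120 and 292 CPM (Muc6 +/+) versus 10.2 and 72.3 CPM (Muc6 -/-), and Rrm2 at 9.68 and 10 versus 34.8 and 31.6. The part of endocrine or dividing cells in the Zbtb16 and Hsd11b2 values was not tested.

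Of 27 further induced targets tested, 11 were higher and 16 lower in the fit, with a median log2 fold change of -0.32 against -0.00173 over all genes tested, and none passed edgeR's test. DESeq2 called 7 lower and 1 higher, against 3.36% lower and 4.06% higher of all genes tested. Pdk4, a kinase that spares glucose, was at 107 and 97.7 CPM (Muc6 +/+) versus 15.2 and 22.5 CPM (Muc6 -/-). Its log2 fold change was -2.44 ± 0.24 (edgeR adjusted p = 0.178, 2.5e-14 to 0.738 over the alternatives). Hif3a, a hypoxia pathway gene, held 90 and 72 counts against 5 and 6 (-3.93 ± 0.51, edgeR adjusted p = 0.187, 2.8e-05 to 0.738 over the alternatives). Per1, a circadian clock gene, was at 35.9 and 50.8 CPM against 18.7 and 13.8 (-1.41 ± 0.26, edgeR adjusted p = 0.21, 0.00256 to 0.738 over the alternatives). DESeq2 called Pdk4, Hif3a and Per1. With so few knockout counts, Hif3a could pass the filter on low counts through its wild-type libraries alone, so nothing is read from its call. Anxa1, named after its values were seen, encodes an anti-inflammatory annexin and was the 1 gene that DESeq2 called higher. It was at 31.3 and 29 CPM (Muc6 +/+) against 261 and 76.4 (Muc6 -/-). Of the 27 targets, 7 had both knockout libraries above both wild-type libraries and 11 had them below. Of all genes tested, 26.3% and 23.8% did.

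Inflammatory genes that the receptor represses were scarce. Of 12, 4 passed the filter on low counts (Il1b, Ccl2, Ptgs2 and Icam1), which a gene can pass through its knockout libraries alone, so no count or median over the 4 is read. None passed the test. The 12 summed to 3.27 and 8.65 CPM (Muc6 +/+) versus 26.5 and 10.3 CPM (Muc6 -/-). Ptgs2, the inducible cyclooxygenase, was at 0.524 and 1.98 CPM against 5.02 and 3.39 (1.75 ± 0.79, edgeR adjusted p = 0.381). Icam1, an adhesion molecule, did not overlap but came close, with 1.13 and 3.96 CPM against 5.6 and 4.34 (0.97 ± 0.71, edgeR adjusted p = 0.578). Ccl2, a monocyte chemokine, held 10 and 3 counts against 14 and 13 (1.02 ± 0.80, edgeR adjusted p = 0.606).

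Genes of local steroid supply were mostly low, with 6 of 12 tested, 3 higher and 3 lower. Hsd3b1, Cyp11b1 and Nr5a1 of this list were at 0 in all 4 libraries. Cyp21a1 of the same list, named after its values were seen, held 0 and 0 counts (Muc6 +/+) versus 19 and 7 (Muc6 -/-). It did not pass the filter on low counts. None passed edgeR's test or DESeq2's. Abcb1a, a drug and steroid efflux pump, was at 0.524 and 2.34 CPM against 6.23 and 2.97 (1.69 ± 0.90, edgeR adjusted p = 0.453). Star, which moves cholesterol into mitochondria, was at 3.07 and 3.18 CPM against 1.43 and 2.23 (-0.77 ± 0.46, edgeR adjusted p = 0.496). Hsd11b1, named after its values were seen, regenerates the hormone that Hsd11b2 inactivates, and it held 3 and 45 counts (Muc6 +/+) versus 3 and 15 (Muc6 -/-), with overlapping groups. H6pd, which feeds that enzyme its cofactor, was at 77.8 and 62.9 CPM against 85.4 and 85.8 (0.28 ± 0.16, edgeR adjusted p = 0.484).

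The mineralocorticoid receptor also binds corticosterone, and Sgk1 acts downstream of it on sodium transport. Its gene Nr3c2 was at 20.2 and 14.7 CPM (Muc6 +/+) versus 9.77 and 6.81 CPM (Muc6 -/-) (-1.08 ± 0.28, edgeR adjusted p = 0.247). Scnn1b, a sodium channel subunit, held 13 and 8 counts against 312 and 93 (4.22 ± 0.83, edgeR adjusted p = 0.214, 1.2e-04 to 0.738 over the alternatives). Atp1b1, a sodium pump subunit abundant in parietal cells, was at 1185 and 1105 CPM against 597 and 672 (-0.85 ± 0.22, edgeR adjusted p = 0.243, 1.7e-05 to 0.738 over the alternatives). Ndrg2, a substrate of SGK1, was at 64.6 and 80.1 CPM against 12.6 and 29.8 (-1.77 ± 0.47, edgeR adjusted p = 0.247, 0.00571 to 0.738 over the alternatives). Of the 11 genes of this axis, 6 were higher and 5 lower, with a median log2 fold change of 0.09. None passed edgeR's test, and DESeq2 called Atp1b1 and Ndrg2 lower and Scnn1b higher. Of all genes tested, DESeq2 called 3.36% lower and 4.06% higher. With so few wild-type counts, Scnn1b could pass the filter on low counts through its knockout libraries alone, so nothing is read from its call.

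Of 12 genes listed as relatives of the 8, close or distant and none of them of Errfi1, 6 had a log2 fold change above 0 and 6 below. The median was -0.17. None passed edgeR's test, and DESeq2 called 1, Klf13, lower, against 3.36% lower of all genes tested. Klf13, a relative of Klf9, was at 73.5 and 73.4 CPM against 41.4 and 49.5 (-0.69 ± 0.15, edgeR adjusted p = 0.226, 0.0169 to 0.738 over the alternatives). Tsc22d2, a relative of Tsc22d3, was at 35.8 and 34.4 CPM against 24.7 and 23.1 (-0.56 ± 0.12, edgeR adjusted p = 0.229). Sgk2, named after its values were seen, was at 31.7 and 19.2 CPM against 65 and 43.8, opposite in direction to Sgk1. Across all 83 tested pathway genes 44 were higher and 39 lower, with a median log2 fold change of 0.04.

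**Figure D4:**
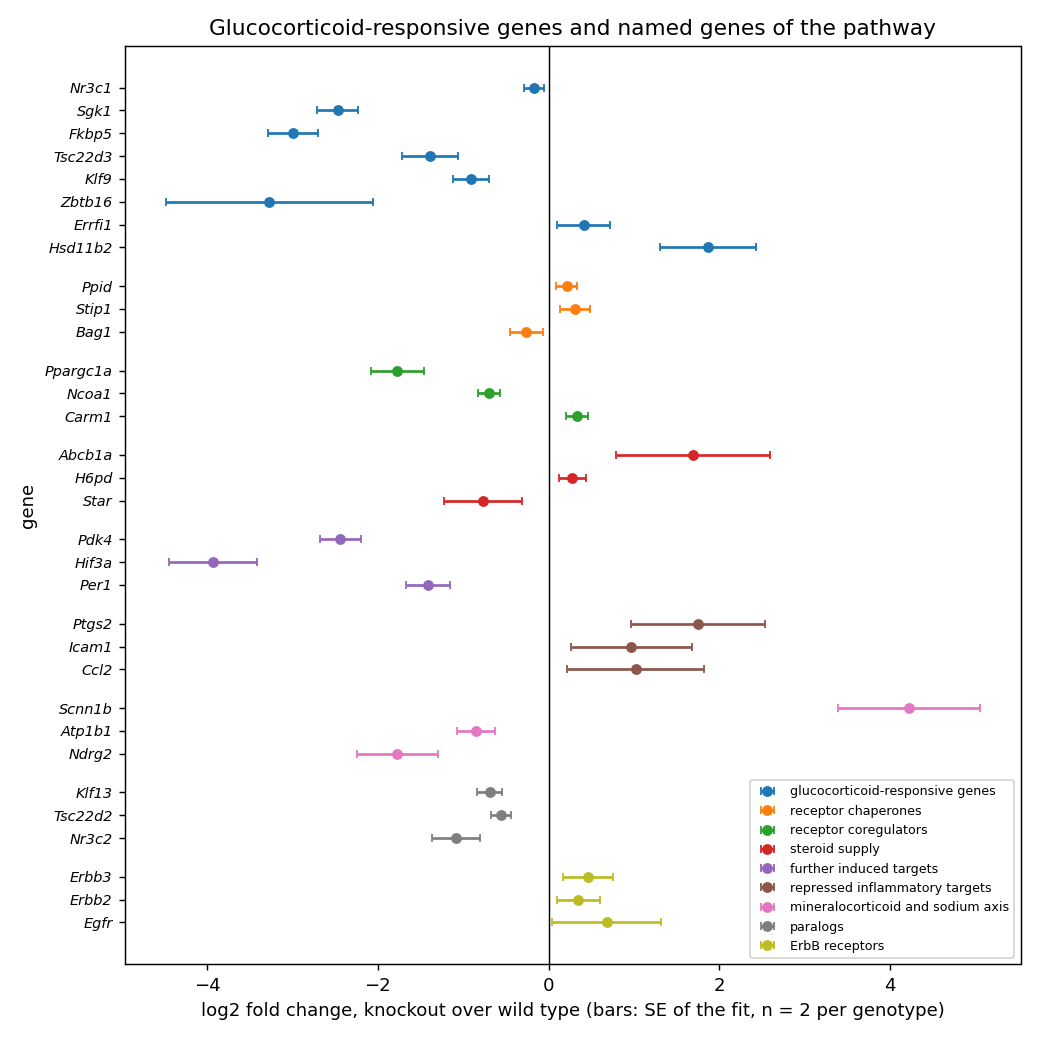
Log2 fold change, knockout over wild type, of the 8 genes and 24 named pathway genes, with bars of 1 SE. Pdk4 at -2.44 and Sgk1 at -2.47 lie side by side. Scnn1b at 4.22 is the highest of those plotted, from only 13 and 8 counts in wild type 1 and 2.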

How the data were processed

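Poly(A) RNA of gastric corpus mucosa was sequenced from stranded libraries, per the labels' protocols. The authors deposited estimated counts per gene, 35% of which were not whole numbers among those above 0 (tolerance 1e-06); the build was mm10, per the submitters' processing notes. The sources used here name no aligner, counter, annotation or strand setting. Of 34866 Ensembl identifiers, 34582 matched GENCODE M21 after the version was removed.

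Expected counts as deposited were rounded and tested, knockout against wild type, with edgeR 4.0.16 (quasi-likelihood, TMM, filterByExpr with a minimum count of 10) in R 4.3.3, with Benjamini-Hochberg adjustment over 14067 genes and a threshold of 0.05. DESeq2 1.42.0, limma 3.58.1 voom, other filters and scalings, a replicate block and leaving out each library were alternatives. The smallest p of an exact two-sided permutation of 2 against 2 libraries is 0.33. Replicate numbers in the titles do not state a pairing. The 8 genes and all lists were chosen with earlier results of these data known. Pathway genes were named as those past the threshold, otherwise the 3 with the smallest p in each list, plus the nearest profiles to each of the 8 genes. The text marks other pathway genes as named after their values were seen. Single cell type markers outside this rule, such as Atp4a, Slc4a2 and Col1a1, were also named with their values known. The script was tested on simulated data. Per-kilobase levels use exon lengths of GENCODE M21. The SE of a log2 fold change is its absolute value over the square root of edgeR's F statistic. The variance in that statistic draws on all genes tested, not on a single gene's libraries alone.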

Additional observations from a re-analysis of the deposited data

How the results depend on the processing

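Depth was 20327623 to 27946313 counts, and 2 libraries per genotype limit every test. Of the 8 genes, 7 kept their direction under all 13 alternatives. These 7 did not overlap between genotypes, so leaving out 1 library could not reverse them, and their kept direction is not read as robustness. Errfi1 kept its direction under 12 alternatives, with -0.09 without knockout 1. In knockout 2 of the 8 were higher, and 1 to 2 when 1 library was left out. edgeR called 0 genes (2236 at an unadjusted p under 0.05), limma voom 0 (2271), DESeq2 1044, and edgeR without a filter on low counts 9. Leaving out 1 library gave 0 to 851 called genes, 851 without knockout 2 and 9 without knockout 1, with the lone library assumed to vary like the other genotype. Pathway genes called numbered 14 by DESeq2 and 0 to 10 when 1 library was left out. With the replicate block, 0 genes were called, Fkbp5 was at -3.03 and Zbtb16 at -3.51; same-numbered libraries deviated together with a correlation of 0.517, but the labels do not pair them. The cause of these differences was not tested.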
